A study of Sus scrofa with 5 samples.

Results

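The blood cell miRNAs were sought as the reported pig miRNAs miR-142, miR-144, miR-150, miR-223, miR-451 and miR-486, taken by name from the table of reported miRNAs with any arm or copy ending. The table held 6 such mature names in 8 of its 493 rows, among 411 mature names in all. They were 3 erythroid names, ssc-miR-144, ssc-miR-451 and ssc-miR-486, and 3 leukocyte names, ssc-miR-142-3p, ssc-miR-142-5p and ssc-miR-150. ssc-miR-223 was not analysed here. Small RNA of 5 samples had been sequenced. BL_1 and BL_2 were pools of hatched day 7 blastocysts (BLs), which were parthenogenetic, that is, developed in vitro from pig oocytes activated by an electric pulse without sperm. The ES-like cells were an embryonic stem cell-like line grown with stem cell factor and basic FGF on mitomycin-C-treated mouse embryonic fibroblasts. The porcine embryoid bodies (PEBs) were clumps of ES-like cells aggregated in hanging drops without these cytokines. The pig fetal fibroblasts (PFFs) were grown from minced fetuses about a month old, without head, limbs and internal organs. Fetal bovine serum was in the medium of the cultured cells and was added to that of the embryos before sampling. No sample was blood, and none was a sorted blood cell. In bulk RNA, fewer cells of a type and less RNA per cell cannot be told apart.

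As background, these miRNAs are used as markers of blood because mature blood cells hold them at high levels. miR-144 and miR-451 lie side by side in the genome, and their joint transcript is switched on by the factor GATA1 as red cells mature. miR-451 is the known exception to Dicer processing, since its short hairpin is cut by Argonaute 2. miR-486 is made in red cell precursors and also in muscle, from within the ankyrin gene ANK1. Both arms of the miR-142 hairpin occur in nearly all white blood cells, and miR-150 is a miRNA of mature lymphocytes that represses the factor MYB. Of the 7 precursors of these names, 5 were found in the RefSeq gene table of Sscrofa11.1. There MIR144 and MIR451 were each other's nearest miRNA gene and both lay within the span of ERAL1, and MIR486-1 lay within ANK1.

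The shallowest library, BL_1, held 113743 mature miRNA reads and BL_2 held 2782150, while the 3 cultured libraries were deeper, at 6372500 (ES-like cells), 15849954 (PEBs) and 27071931 (PFFs). Levels are given as reads per 1000000 mature miRNA reads of the library (RPM). A count of 0 was taken to allow a level of up to 3 counts, which is 26.4 RPM in BL_1, but only 1.08 RPM in BL_2 and 0.111 RPM in PFFs. An exact 95% interval for 0 reads reaches further, to 32.4 RPM in BL_1 and 1.33 RPM in BL_2. The labels were checked against markers. ssc-miR-371-5p, a miRNA of early embryos and pluripotent cells, stood at 296150 RPM or more in both BL libraries. It had 30.9 RPM in ES-like cells, 0.505 RPM in PEBs and 0.185 RPM in PFFs. No other marker of pluripotent cells was used, and its ES-like level was far below that of BLs, so the check of the ES-like label is weak. Of 5 fibroblast-associated miRNAs, ssc-miR-21, ssc-miR-143-3p and ssc-miR-145-5p were highest in PFFs, and ssc-miR-199a-3p and ssc-miR-214 were highest in PEBs. Their sum of 680040 RPM in PFFs, against 288180 RPM in PEBs and 195230 RPM in ES-like cells, was mostly ssc-miR-21. Only the BLs were sequenced as 2 libraries, and differences among the 3 cultured cell types, with 1 library each, were not replicated. The intervals below are exact 95% intervals for counting error only. They treat each read as an independent molecule, which PCR reads are not, so they may be too narrow.

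All 6 blood cell miRNAs were scarce. Their summed level was 123 RPM in BL_1, 98.5 RPM in BL_2, 94.8 RPM in PEBs, 62.3 RPM in ES-like cells and 3.88 RPM in PFFs. ssc-miR-150 and ssc-miR-486 each have 2 precursor rows with identical counts, and with such rows counted once the sums were 61.5, 57.2, 89.7, 56.0 and 2.77 RPM, so that PEBs were highest. The BL_1 sum then rests on 7 reads. Within ES-like cells, they ranked between 214 and 250 of the 309 reported miRNAs with a read. The highest rank of a member was 111 of 215, for ssc-miR-486 in BL_1. BL_1 had reads of 2 members, BL_2 of 5 and each cultured library of all 6. Each member was more than 2-fold above every other cell type in 1 type, where the BL level is the mean of both libraries. Of the 313 miRNAs with at least 10 reads over the 5 libraries, 42.2% met this rule in some cell type, 17.3% in BLs, 11.8% in ES-like cells and 7.03% in PEBs. ssc-miR-144 and ssc-miR-451 were highest in ES-like cells, both miR-142 arms in PEBs, and ssc-miR-486 and ssc-miR-150 in BLs. Without BL_1, or with TMM or DESeq2 scaling, ssc-miR-451 no longer met the rule. Without BL_2, ssc-miR-142-5p and ssc-miR-486 alone of the 6 met it, in PEBs and BLs.

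**Figure D1:**
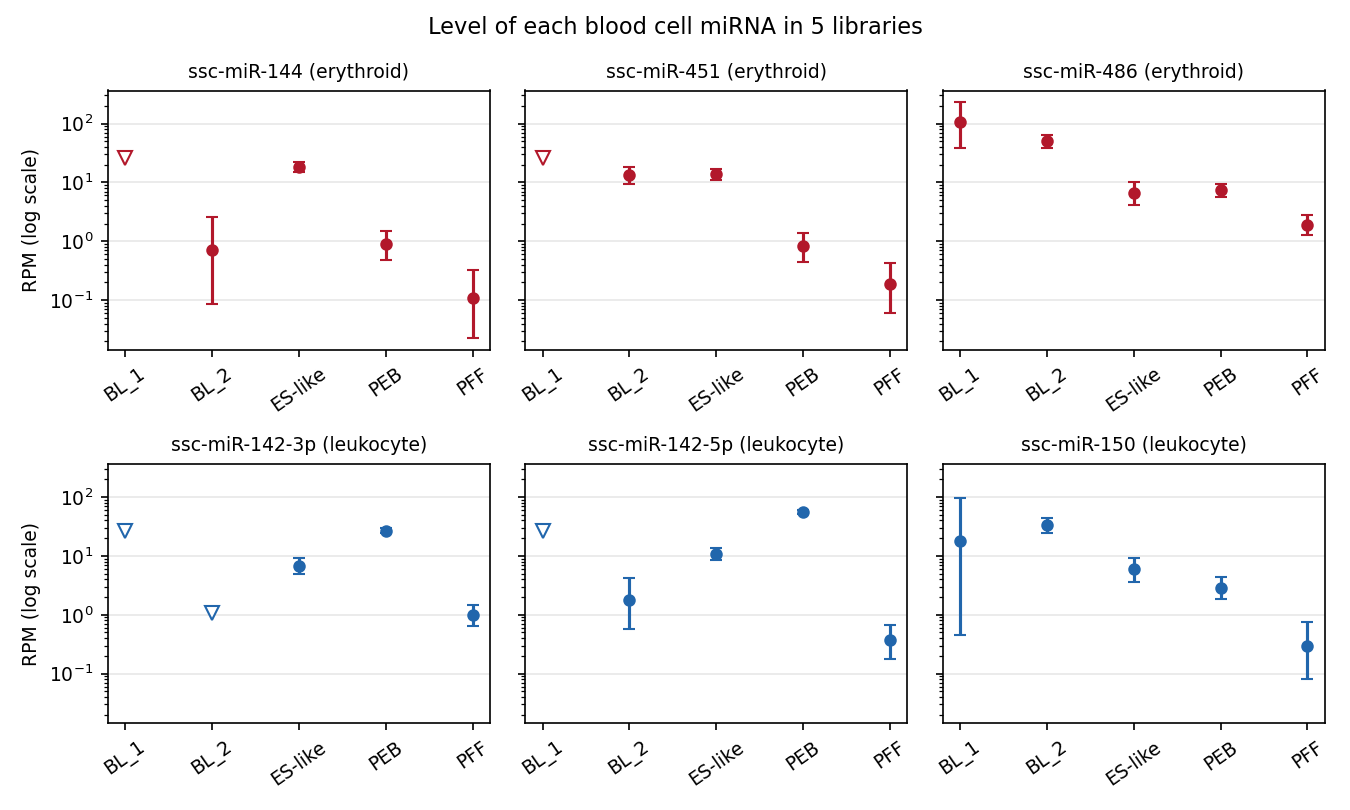
Level of each blood cell miRNA in RPM on a log axis in the 5 libraries, erythroid names in red and leukocyte names in blue. Filled points are measured levels with exact 95% intervals for counting error. Open triangles mark the limit of 3 counts for a count of 0 (26.4 RPM in BL_1 and 1.08 RPM in BL_2), which is not the end of such an interval. The pair ssc-miR-144 and ssc-miR-451 drops from ES-like cells to PEBs, while both miR-142 arms peak in PEBs.

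ssc-miR-144, the erythroid miRNA with the largest ratio of ES-like cells to PFFs, reached 116 reads in ES-like cells but 14 in PEBs, 3 in PFFs, 2 in BL_2 and 0 in BL_1. These are 18.2 RPM in ES-like cells (15.0 to 21.8), 0.883 RPM in PEBs (0.483 to 1.48), 0.111 RPM in PFFs (0.0229 to 0.324) and 0.719 RPM in BL_2 (0.0871 to 2.60). The ES-like library stood alone, followed by PEBs, BL_2 and PFFs. BL_2 was within counting error of both PEBs and PFFs, while PEBs held 7.97 times the RPM of PFFs (2.22 to 43.3). At its ES-like level, 2.07 reads would be present in BL_1, so the absence of reads there does not separate BL_1 from ES-like cells. ES-like cells held 20.6 times the RPM of PEBs (11.8 to 38.9) and 164 times that of PFFs (54.8 to 808), the latter over 3 reads in PFFs. Among 294 miRNAs with a ratio, ssc-miR-144 ranked 3 by its excess in ES-like cells over PEBs.

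ssc-miR-451, its neighbour in the cluster, reached 88 reads in ES-like cells, 37 in BL_2, 13 in PEBs, 5 in PFFs and 0 in BL_1. Its level was 13.8 RPM in ES-like cells (11.1 to 17.0), 13.3 RPM in BL_2 (9.36 to 18.3), 0.820 RPM in PEBs (0.437 to 1.40) and 0.185 RPM in PFFs (0.0600 to 0.431). BL_2 and ES-like cells were within counting error of each other, and both were far above PEBs and PFFs. ES-like cells were 16.8 times as high as PEBs (9.35 to 32.9), rank 4 of 294, and 74.8 times as high as PFFs (30.9 to 236). Against BLs, ES-like cells were 2.08 times as high, but this ratio rests on the 0 reads of BL_1, where 1.51 reads would be present at the level of BL_2. With BL_2 alone the log2 ratio of BLs to ES-like cells was -0.05, against -1.05 with the mean.

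The 2 neighbours did not keep a fixed proportion. ssc-miR-144 made up 116 of 204 reads of the pair in ES-like cells, or 56.9% (49.8 to 63.8%), 51.9% of 27 reads in PEBs (31.9 to 71.3%) and 37.5% of 8 reads in PFFs (8.52 to 75.5%). In BL_2 it was 2 of 39 reads, or 5.13% (0.627 to 17.3%). The interval of BL_2 lay below those of ES-like cells and PEBs and overlapped that of PFFs. These are intervals of single libraries, and no second BL library could be set beside BL_2, since BL_1 had no read of either.

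ssc-miR-486, the third erythroid name, had its highest levels in BLs. Its 2 precursor rows held identical counts in every library, 69 reads in BL_2, 58 in PEBs, 26 in PFFs, 21 in ES-like cells and 6 in BL_1, and so did those of ssc-miR-150. Of 57 reported miRNAs with reads and more than 1 row, 26 had rows identical in all 5 libraries. If the same reads were counted at both rows, the RPM values of these 2 names are too high by the factor of their rows, while ratios between libraries change little. Intervals for both were therefore computed from the reads of 1 row. Summed over rows, ssc-miR-486 stood at 105.5 RPM in BL_1 (38.7 to 229.6), 49.6 RPM in BL_2 (38.6 to 62.8), 7.32 RPM in PEBs (5.56 to 9.46), 6.59 RPM in ES-like cells (4.08 to 10.1) and 1.92 RPM in PFFs (1.25 to 2.81). Both BL libraries lay above the 3 cultured libraries, and PFFs were lowest. The ratio of BL_1 to BL_2 was 2.13 (0.755 to 4.87), and ES-like cells and PEBs were within counting error of each other. The BL mean of 77.6 RPM ± 39.5 (SD, n = 2) was 11.8 times the level of ES-like cells, 10.6 times that of PEBs and 40.4 times that of PFFs. Without BL_1, the log2 ratios were 2.91, 2.76 and 4.69, against 3.56, 3.41 and 5.34 with both.

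miR-486 is also a muscle miRNA, so 8 miRNAs of skeletal and heart muscle were looked at beside it. Their summed level was 2630 RPM in BL_2, 1231 RPM in BL_1, 1096 RPM in PFFs, 646 RPM in PEBs and 404 RPM in ES-like cells. The myocyte miRNA ssc-miR-1 made up most of the sum in both BL libraries, with 853 RPM in BL_1 and 1968 RPM in BL_2, against 898 RPM in PFFs. The members of the list were not all highest in BLs, as ssc-miR-499-5p was highest in ES-like cells and ssc-miR-208b in PEBs. Of the 8, 4 were at 0 in BL_1 and 2 in BL_2. In edgeR, 1 of the 7 tested was higher and 0 were lower in BLs than in PFFs (21.1% and 30.4% of all miRNAs). The higher one, ssc-miR-206, had no read in PFFs. The median log2 fold change of 0.0 (-0.87 over all) is the empty fit of ssc-miR-208b, without reads in either type. Against ES-like cells, 2 were higher, ssc-miR-1 (3.79) and ssc-miR-133a-3p (5.28), and 0 lower (17.6% and 29.4% of all, median 1.15 against -0.75). Against PEBs, 1 was higher and 1 lower (17.6% and 35.8% of all, median 0.95 against -1.09). The lower one, ssc-miR-208b, had no read in BLs. The part of muscle-type expression in the ssc-miR-486 level was not tested.

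Among the leukocyte names, ssc-miR-142-5p had 885 reads in PEBs, 70 in ES-like cells, 10 in PFFs, 5 in BL_2 and 0 in BL_1. That is 55.8 RPM in PEBs (52.2 to 59.6), 11.0 RPM in ES-like cells (8.56 to 13.9), 1.80 RPM in BL_2 (0.584 to 4.19) and 0.369 RPM in PFFs (0.177 to 0.679). The levels of PEBs, ES-like cells, BL_2 and PFFs each differed from the next by more than counting error. ssc-miR-142-3p, the other arm, had 428 reads in PEBs, 43 in ES-like cells, 27 in PFFs and no read in either BL library. Its level was 27.0 RPM in PEBs (24.5 to 29.7), 6.75 RPM in ES-like cells (4.88 to 9.09) and 0.997 RPM in PFFs (0.657 to 1.45). Over both BL libraries, 0 reads allow up to 1.04 RPM, which includes the level of PFFs.

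Both arms were thus highest in PEBs. PEBs held 5.08 times the RPM of ES-like cells for ssc-miR-142-5p (3.98 to 6.58) and 4.00 times for ssc-miR-142-3p (2.92 to 5.61). Of 294 miRNAs, only 4 had a larger excess in PEBs over ES-like cells than ssc-miR-142-5p, and ssc-miR-142-3p ranked 13. Over PFFs, the PEB level was 151 times as high for the 5p arm (81.8 to 316) and 27.1 times for the 3p arm (18.3 to 41.6).

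The 5p arm held 885 of the 1313 reads of the hairpin in PEBs, or 67.4% (64.8 to 69.9%), and 61.9% of 113 reads in ES-like cells (52.3 to 70.9%). In PFFs the 3p arm prevailed, with 5p at 27.0% of 37 reads (13.8 to 44.1%). The PFF interval lay below those of ES-like cells and PEBs. All 5 reads of the hairpin in BL_2 were 5p (47.8 to 100%), a number too small to set it apart from ES-like cells or PEBs.

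**Figure D2:**
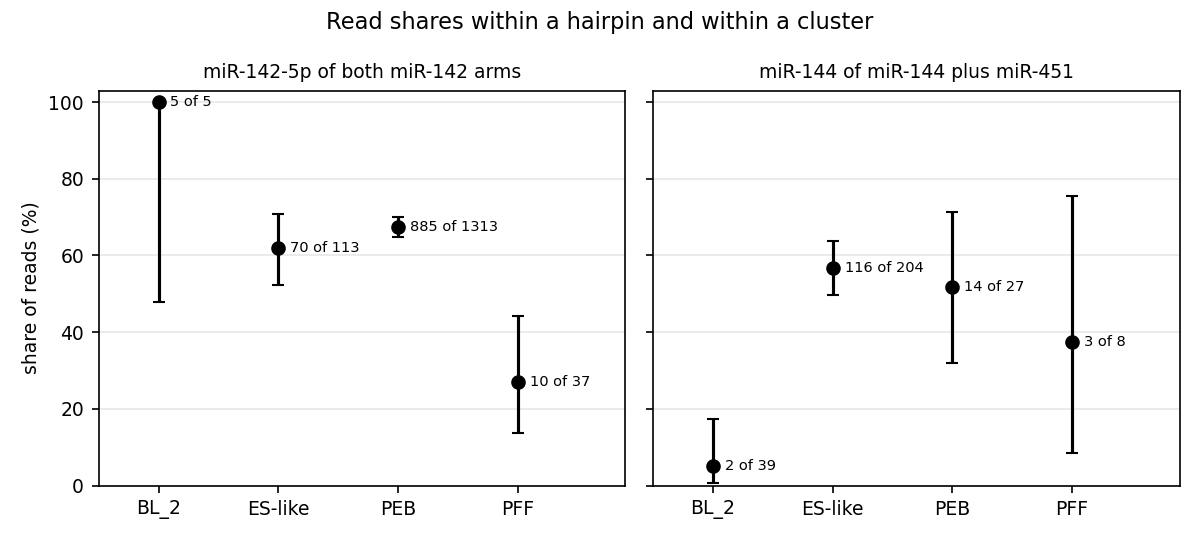
Share of reads (percent) of the 5p arm among both miR-142 arms (left) and of ssc-miR-144 among ssc-miR-144 plus ssc-miR-451 (right) in BL_2, ES-like cells, PEBs and PFFs, with the reads behind each share printed beside it. Bars are exact 95% binomial intervals, and BL_1 had no read of these miRNAs. The 5p share is lowest in PFFs (27.0%) and the ssc-miR-144 share is lowest in BL_2 (5.13%).

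ssc-miR-150, the lymphocyte miRNA, was highest in BL_2. Each of its identical rows held 46 reads in BL_2, 23 in PEBs, 19 in ES-like cells, 4 in PFFs and 1 in BL_1. Summed over rows, its level was 33.1 RPM in BL_2 (24.2 to 44.1), 17.6 RPM in BL_1 (0.445 to 98.0), 5.96 RPM in ES-like cells (3.59 to 9.31), 2.90 RPM in PEBs (1.84 to 4.35) and 0.296 RPM in PFFs (0.0805 to 0.757). Its levels in BL_1, BL_2 and ES-like cells, the pluripotent cells of the study, all lay above PEBs and PFFs, as was the case for 16.3% of the 313 miRNAs. The single read per row in BL_1 does not separate that library from BL_2, ES-like cells or PEBs. BL_2 exceeded ES-like cells beyond counting error (ratio interval 3.19 to 10.0), and the BL mean of 25.3 RPM ± 10.9 (SD, n = 2) was 4.25 times the ES-like level, 8.73 times that of PEBs and 85.7 times that of PFFs. ES-like cells had 2.05 times the RPM of PEBs (1.06 to 3.94), a ratio that fell below 2-fold under TMM scaling (log2 ratio 0.43), with the largest precursor row (0.91) or with a pseudocount of 1 RPM (0.84).

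From ES-like cells to PEBs, which were made from them, the members parted. In RPM, 3 of the 6 were more than 2-fold higher in ES-like cells (ssc-miR-144, ssc-miR-451 and ssc-miR-150), against 23.3% of the 313 miRNAs. The pair of miR-142 arms was more than 2-fold higher in PEBs, against 19.5% of all. ssc-miR-486 was within 2-fold, with 0.901 times the PEB level in ES-like cells (0.519 to 1.51). Both cultures are single libraries, so these are ratios of 2 libraries.

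All 6 members were more than 2-fold higher in ES-like cells than in PFFs, where 50.8% of the 313 miRNAs were, and all 6 were more than 2-fold higher in PEBs than in PFFs, where 43.5% were. These shares also move with the scale. ssc-miR-21, a miRNA abundant in fibroblasts, took 52.3% of the PFF reads, and 57.2% of the miRNAs were lowest in PFFs among the 3 cultured libraries. With TMM scaling, which lowers the weight of such a miRNA, the median log2 ratios over all miRNAs moved. The shift was -1.37 for ES-like cells to PFFs, -0.77 for PEBs to PFFs and -0.61 for ES-like cells to PEBs. With TMM, ssc-miR-486 lost its 2-fold excess in ES-like cells over PFFs (log2 ratio 0.41 against 1.78), and the other 5 members kept theirs. With DESeq2 size factors, ssc-miR-486 also lost it in PEBs over PFFs (0.93 against 1.93). With a pseudocount of 1 RPM, ssc-miR-144 and ssc-miR-451 lost their 2-fold excess in PEBs over PFFs (log2 ratio 0.76 against 2.99 and 0.62 against 2.15). Single ratios over PFFs rested on few PFF reads, from 3 for ssc-miR-144 to 27 for ssc-miR-142-3p.

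**Figure D3:**
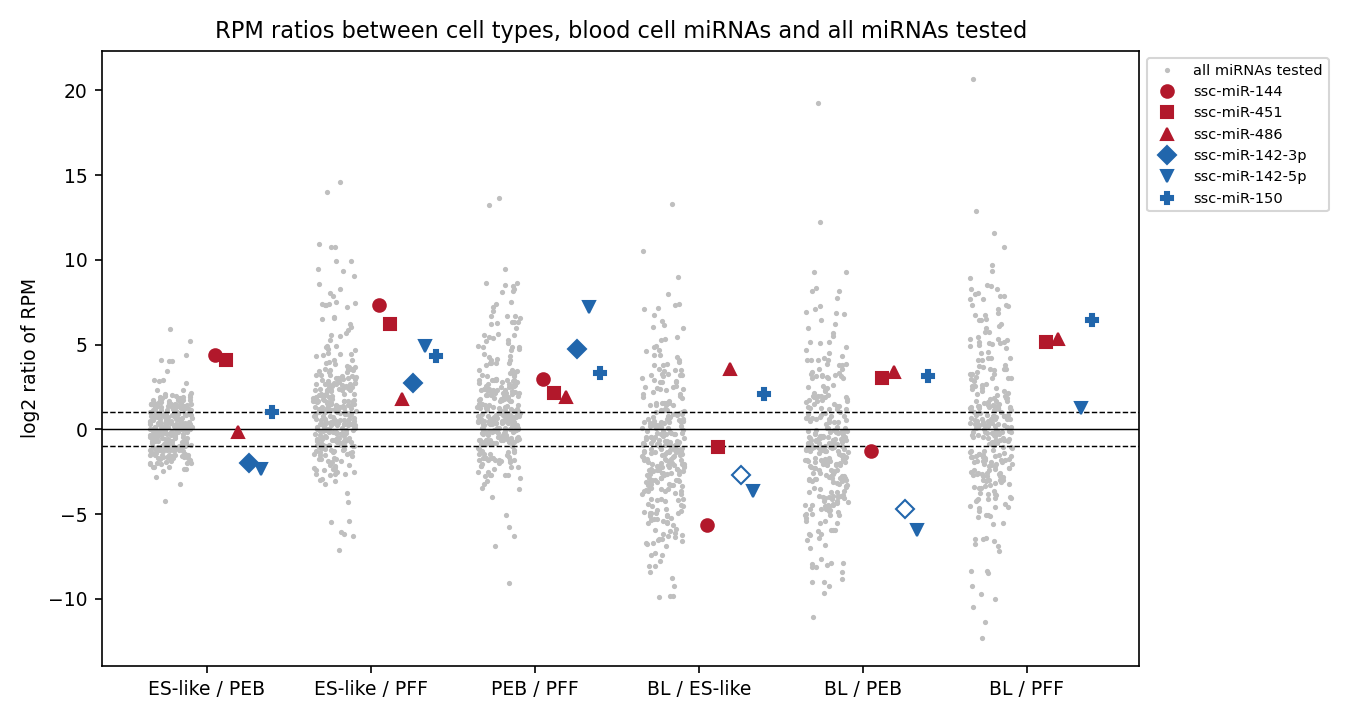
Log2 ratios of RPM between each pair of cell types, with the BL level averaged over both libraries. Grey points are all miRNAs tested, coloured symbols the blood cell miRNAs (erythroid red, leukocyte blue), open symbols are bounds from 0 reads in BLs, dashed lines mark 2-fold, and members without a ratio are not drawn. ssc-miR-144 and ssc-miR-451 lie near the top of the ES-like to PEB ratios at 4.37 and 4.07, and the miR-142 arms lie near the bottom at -2.35 and -2.00.

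In RPM, with the mean of both BL libraries, 2 of the 6 members were more than 2-fold higher in BLs than in ES-like cells and 4 were lower, against 23.6% and 49.8% of the 313 miRNAs. Against PEBs, 3 were higher and 3 lower, against 25.9% and 48.6% of all. In both comparisons ssc-miR-142-3p, at 0 reads in BLs, entered with the limit of 3 counts over both BL libraries and not with a mean. That limit is 1.04 RPM, while BL_1 alone allows 26.4 RPM. Against PFFs, ssc-miR-142-3p (0 reads in BLs, 27 in PFFs) and ssc-miR-144 (2 and 3 reads) had no ratio to call. Of the members with a ratio, 4 were higher and 0 lower, against 35.8% and 33.2% of all. Of these 4, ssc-miR-142-5p was 2.43 times as high and fell within 2-fold under TMM scaling (log2 ratio 0.54) or DESeq2 size factors (0.81), while without BL_1 its log2 ratio was 2.28 against 1.28. ssc-miR-451 moved with the comparison, as the BL mean was 8.11 times the level of PEBs and 36.0 times that of PFFs, yet did not exceed ES-like cells. Without BL_1, where it had 0 reads, its log2 ratios to PEBs and PFFs were 4.02 and 6.17, against 3.02 and 5.17 with both. ssc-miR-144 had 2.46 times the BL mean in PEBs, a ratio of 2 reads in BL_2 to 14 in PEBs that was within 2-fold without BL_1 (log2 ratio of BLs to PEBs -0.30). Without BL_2, both miR-142 arms are at 0 reads in BLs, and the log2 ratio of BLs to PEBs is bounded only at -0.03 for ssc-miR-142-3p and -1.08 for ssc-miR-142-5p.

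BLs were then compared with each other cell type by edgeR's quasi-likelihood test in a fit with 1 coefficient per cell type. The spread in this fit comes from the BL pair, and the lone library of the other type is assumed to vary like it. The 3 comparisons share the BL libraries. Against ES-like cells, 2 members were higher in BLs and 2 lower at an adjusted p under 0.05, where 17.6% and 29.4% of the 313 miRNAs were. ssc-miR-486 was higher in BLs by a log2 fold change of 3.98 (SE 1.24, edgeR adjusted p = 0.00482), and ssc-miR-150 by 2.86 (SE 1.25, edgeR adjusted p = 0.0491). ssc-miR-144 was lower in BLs, at -4.09 (SE 1.74, edgeR adjusted p = 0.0411). ssc-miR-142-3p was lower as well (edgeR adjusted p = 0.0326). Its RPM in ES-like cells was 6.51 times the limit of 3 counts over both BL libraries. With counting error, BL_2 was at least 4.87-fold lower than ES-like cells. ssc-miR-142-5p and ssc-miR-451 did not pass, with -2.09 (SE 1.36) and 0.27 (SE 1.22). With DESeq2, which called 15.3% of the miRNAs higher and 22.0% lower, ssc-miR-486 alone passed against ES-like cells (DESeq2 adjusted p = 0.00432), and ssc-miR-150 also missed the threshold with DESeq2 size factors, RPM scaling or the largest precursor row in edgeR.

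Against PEBs, ssc-miR-486, ssc-miR-150 and ssc-miR-451 were higher in BLs, where 17.6% of all miRNAs were. Their log2 fold changes were 3.23 (SE 1.18), 3.29 (SE 1.27) and 3.71 (SE 1.44), with edgeR adjusted p of 0.0157, 0.0221 and 0.0222. Both miR-142 arms were lower in BLs than in PEBs, where 35.8% of all miRNAs were. ssc-miR-142-5p was lower by a log2 fold change of -5.04 (SE 1.34, edgeR adjusted p = 0.000739). ssc-miR-142-3p, at 0 reads in BLs, was lower as well (edgeR adjusted p = 0.000416). Its RPM in PEBs was 26.1 times the limit of 3 counts over both BL libraries. With counting error, BL_2 was at least 20.3-fold lower than PEBs. ssc-miR-144 was at -0.36 (SE 1.95). With DESeq2, which called 16.3% of the miRNAs higher and 20.4% lower, ssc-miR-486 passed (DESeq2 adjusted p = 0.0059), and the other 4 missed the threshold, with DESeq2 adjusted p from 0.0947 to 0.313.

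Against PFFs, the same 3 members were higher in BLs and none was lower, while 21.1% of all miRNAs were higher and 30.4% lower. The log2 fold change was 5.79 for ssc-miR-150 (SE 1.49, edgeR adjusted p = 0.000463), 5.06 for ssc-miR-451 (SE 1.59, edgeR adjusted p = 0.00453) and 4.39 for ssc-miR-486 (SE 1.27, edgeR adjusted p = 0.00194). ssc-miR-142-5p was at 1.41 (SE 1.52), and ssc-miR-144, with 2 reads in BLs and 3 in PFFs, is given no fold. ssc-miR-142-3p, with no read in BLs, did not pass (edgeR adjusted p = 0.128). DESeq2, which called 18.8% of the miRNAs higher and 19.5% lower, kept ssc-miR-150 and ssc-miR-486, and ssc-miR-451 missed the threshold (DESeq2 adjusted p = 0.195).

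The study also set pluripotent cells (BLs and ES-like cells) against differentiated cells (PEBs and PFFs). With these 3 and 2 libraries, edgeR called 0 of the 6 members and 0 of the 313 miRNAs, 0.0% in each direction, and 36 miRNAs (11.5%) but no member had an unadjusted p under 0.05. DESeq2 called 17 miRNAs (5.11% higher and 0.319% lower in pluripotent cells) and no member, although 3 members had an unadjusted p under 0.05, as had 18.2% of the miRNAs. ssc-miR-144, ssc-miR-451, ssc-miR-486 and ssc-miR-150 had log2 fold changes of 3.22 (SE 1.99), 3.88 (SE 1.75), 3.22 (SE 1.67) and 3.40 (SE 1.73). The miR-142 arms 3p and 5p were at -2.83 (SE 2.05) and -2.89 (SE 1.92), and without the PEB library these values became 0.22 and 2.54. Without the ES-like library, the value of ssc-miR-144 became 0.27. Over left-out libraries, ssc-miR-150 ranged from 2.34 (without BL_2) to 5.13 (without PEBs). The range of ssc-miR-451 was 3.38 (without BL_2) to 4.93 (without BL_1), and that of ssc-miR-486 was 3.14 (without BL_1) to 3.92 (without PEBs). The lowest edgeR adjusted p of a member was 0.413, for ssc-miR-451. The libraries of each side are of different cell types, which the spread in this fit includes.

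**Figure D4:**
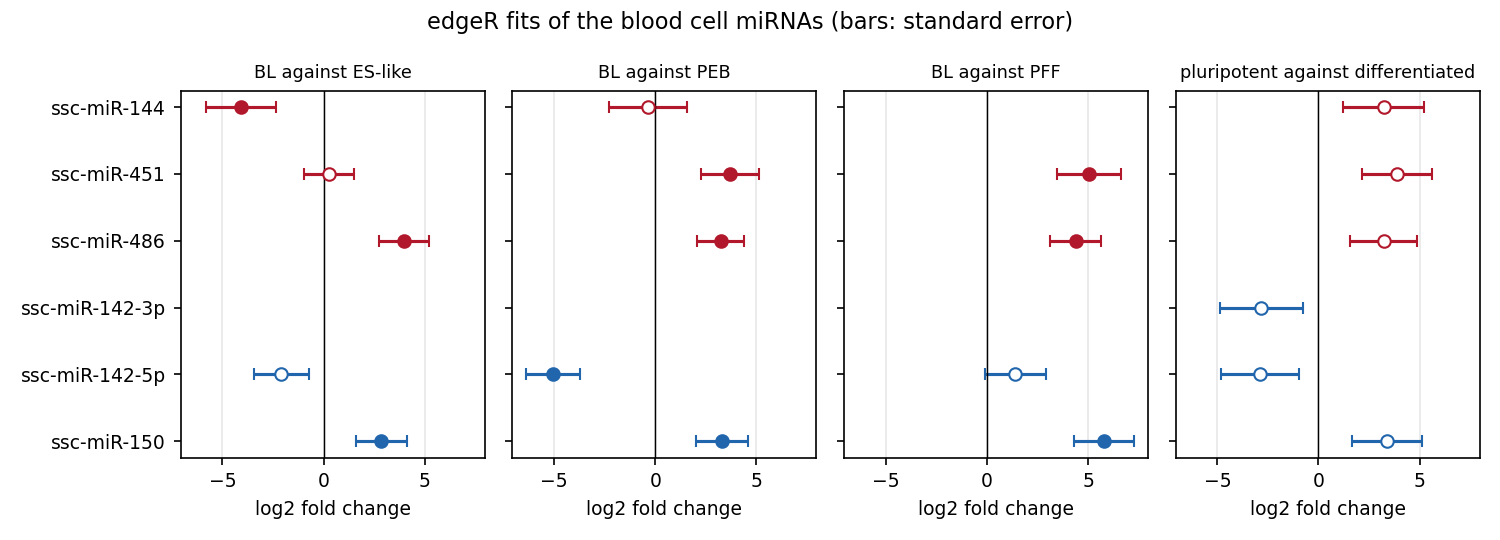
Log2 fold changes of the blood cell miRNAs from edgeR (points, bars are standard errors) for BLs against ES-like cells, PEBs and PFFs and for pluripotent against differentiated libraries. Filled points have an adjusted p under 0.05, and ssc-miR-142-3p, with 0 reads in BLs, is not drawn in the comparisons of BLs, nor ssc-miR-144 against PFFs. Filled points to the right of 0 in the BL panels are ssc-miR-486 and ssc-miR-150 throughout, joined by ssc-miR-451 against PEBs and PFFs, while the panel on pluripotent cells has open points only.

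A further 12 miRNAs of blood and vessel cells were followed as a list, namely both arms of miR-126 and miR-155, ssc-miR-146a-5p, 4 miR-181 names, ssc-miR-221-3p, ssc-miR-222 and ssc-miR-342. In edgeR, 1 of the 12 was higher and 8 lower in BLs than in PFFs (21.1% and 30.4% of all miRNAs), with a median log2 fold change of -3.67 against -0.87 over all miRNAs. Against PEBs, 1 was higher and 7 lower (17.6% and 35.8% of all, median -2.78 against -1.09), and against ES-like cells 2 were higher and 4 lower (17.6% and 29.4% of all, median -1.47 against -0.75). Fitted values of names at 0 in BLs enter these medians. From ES-like cells to PEBs, 2 of the 12 (23.3% of all miRNAs) were more than 2-fold higher in ES-like cells and 4 (19.5% of all) were so in PEBs, with a median log2 ratio of -0.61 against 0.22 over all.

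The 2 higher in ES-like cells were the arms of miR-126, a miRNA of endothelial cells. ssc-miR-126-3p stood at 1294 RPM in ES-like cells, 287 RPM in PEBs, 161 RPM in PFFs, 105.5 RPM in BL_1 and 44.6 RPM in BL_2. ssc-miR-126-5p stood at 47.2, 12.8 and 5.21 RPM in ES-like cells, PEBs and PFFs and had no read in BLs. Both arms thus had their highest level in ES-like cells, as ssc-miR-144 had. The 4 other leukocyte-associated miRNAs, miR-146a-5p, miR-342 and the arms of miR-155, summed to 508 RPM in PEBs, 336 RPM in ES-like cells, 316 RPM in PFFs, 301 RPM in BL_2 and 176 RPM in BL_1. They were not all highest in the same cell type. ssc-miR-155-5p was highest in PFFs, at 279 RPM against 156 RPM in PEBs, and ssc-miR-342 in ES-like cells, at 178 RPM against 148 RPM in PEBs. ssc-miR-146a-5p, induced in activated immune cells, had 158 RPM in BL_1, 199.9 RPM in BL_2 and 203 RPM in PEBs, but 49.1 RPM in ES-like cells and 5.28 RPM in PFFs. The part of endothelial or white blood cells in these levels was not tested.

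For each member, the miRNAs with the most similar profile were sought by Euclidean distance between centred log2(RPM + 1) values over 4 cell types, with BL reads summed and 313 miRNAs compared. ssc-miR-142-3p was the nearest profile to ssc-miR-142-5p (distance 1.48), followed by ssc-miR-208b (1.54). The nearest to ssc-miR-142-3p were ssc-miR-376c (0.836) and ssc-miR-218b (1.14). ssc-miR-144 was nearest to ssc-miR-676-5p (0.975) and ssc-miR-148a-3p (1.40), not to its cluster neighbour. ssc-miR-451 was nearest to ssc-miR-1468 (1.15) and ssc-miR-425-5p (1.33). ssc-miR-150 was nearest to ssc-miR-92b-5p (0.371) and ssc-miR-361-3p (0.796), and ssc-miR-486 to ssc-miR-139-5p (0.623) and, again, ssc-miR-361-3p (0.765). With 4 points per profile, and few reads behind several of them, these distances are descriptions only.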

How the data were processed

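The 5 small RNA libraries were mapped to cell types from the labels. The authors trimmed adapters with Cutadapt 1.10, aligned reads with Bowtie 1.1.1 to the pig genome Sscrofa10.2 and counted reported miRNAs of miRBase with miRDeep2, and they deposited raw counts per pair of mature miRNA and precursor, without normalization. How reads matching several precursors were counted is not given in the sources used here. The study's sample sheet gives the mature read totals of ES-like cells and PFFs the other way round, and the labelled columns were followed. The deposited table of predicted miRNAs was not used here, nor were the sequences of the miRNAs. 0 further columns of per-sample values were left aside.

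Counts were summed over precursor rows and divided by library totals, with depth from 113743 to 27071931 reads. A cell type with 0 reads was set to 3 counts over its libraries and could only count as the lower one. No fold was formed where both types had at most 3 reads. Calls were RPM ratios past 2-fold, the study's threshold, or Benjamini-Hochberg adjusted p under 0.05 over all 313 miRNAs with at least 10 reads in all, from edgeR 4.0.16 (quasi-likelihood, TMM) in R 4.3.3. SEs were derived from the fold change and the F statistic. All 6 members passed that filter. DESeq2 1.42.0, other scales, filters, a 4-fold threshold and left-out libraries were alternatives. Where nothing says that the BL pools came from separate productions, p-values measure only the spread between these samples. All members were named, with 12 listed miRNAs, marker lists and the 2 nearest profiles of each member. The members and lists were chosen with earlier results of these data known. Python 3.11.15, pandas 2.3.3 and scipy 1.17.1 were used.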

Additional observations from a re-analysis of the deposited data

How the results depend on the processing

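For pluripotent against differentiated cells, edgeR called 0 miRNAs under each alternative setting of scale, filter and precursor rows, DESeq2 called 17, and leaving out 1 library in turn gave 0 to 40, the 40 without ES-like cells. No member was called in any of these. The counts for BLs against each other cell type ranged from 115 to 176. Without BL_1 or without BL_2, from 2 to 5 members were past 2-fold against ES-like cells, 3 to 5 against PEBs and 2 to 4 against PFFs, and 2 to 5 were more than 2-fold above each other cell type. The low counts are those without BL_2. Leaving out BL_1 took the call of ssc-miR-451 against ES-like cells and of ssc-miR-144 against PEBs, and leaving out BL_2 that of ssc-miR-142-3p against PEBs (log2 ratio bounded at -0.03) and left 8 further ratios without a value. Of 194 ratios of members under an alternative, the call differed for 25, of which 6 were unchanged ratios under the 4-fold threshold, and 0 were past a threshold in the opposite direction. Fitted values that changed sign had not passed the test. They were those of the miR-142 arms without PEBs (0.22 for 3p and 2.54 for 5p, pluripotent against differentiated, with a range over left-out libraries from -9.96 and -4.18, the first a fitted value with all pluripotent libraries at 0 reads), of ssc-miR-451 for BLs against ES-like cells with RPM scaling (-0.34) and with DESeq2 (-0.25), and of ssc-miR-144 for BLs against PEBs with DESeq2 size factors (0.16) and with DESeq2 (0.84). No paired analysis was possible because the labels number the BL libraries only. Fits of BLs without BL_1 or BL_2 have no residual degrees of freedom and were not tested. The shares of miR-142 arms and of ssc-miR-144 do not depend on the scale.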
